A study of Homo sapiens with 8 samples.

Results

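The classical cadherins examined here are 9 cell adhesion genes, CDH1, CDH2, CDH3, CDH4, CDH6, CDH7, CDH8, CDH10 and CDH11, taken by gene symbol from a table of 35940 symbols. They were followed through the neural differentiation of ESI017, a human embryonic stem cell line of wild type genotype. In every library the cells had been plated at 30000 cells per square centimetre, kept for 24 h in a maintenance medium with a ROCK inhibitor, and then moved to the serum-free medium N2B27 with 10 µM SB and 100 nM LDN. Recombinant WNT3A was added at 300 ng/mL after 34 h of differentiation, and poly(A) RNA was sequenced at 34, 42, 50 and 72 h, which is 0, 8, 16 and 38 h after the addition. Each of the 4 time points had 2 libraries, 8 in all, and the second replicate is described as an independent biological one. Cells without WNT3A were not analysed here, so effects of time and of WNT3A cannot be told apart. TPM, the unit used throughout, is a share of the transcripts of a library after scaling for gene length, and all 9 genes reached the minimum of 1 TPM in at least 2 libraries that was set for testing.

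Classical cadherins are single-pass membrane proteins that hold neighbouring cells together at adherens junctions. Their outer repeats bind cadherins of the next cell in the presence of calcium, and their cytoplasmic tail binds beta-catenin and, through alpha-catenin, the actin cytoskeleton. CDH1 encodes E-cadherin, the cadherin of epithelia and of pluripotent stem cells, and CDH2 encodes N-cadherin, the cadherin of the neural plate and neural tube. The exchange of the former for the latter is a known step of neural induction and of epithelial-to-mesenchymal transitions. CDH3 (P-cadherin) and CDH4 (R-cadherin) belong with them to the type I group, while CDH6, CDH7, CDH8, CDH10 and CDH11 are type II cadherins, many of which mark subsets of neural or mesenchymal cells.

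The libraries resembled each other in their general measures. Between 13860 and 14004 symbols reached 1 TPM in a library, and the mitochondrial share of the TPM was 8.70% to 11.2%. The summed TPM of 9 pluripotency markers was 3729 to 3794 at 34 h and 1968 to 2074 at 72 h. That of 7 neural progenitor markers was 383 to 399 and 655 to 698 at the same times. Tested with limma, 5 of the 9 pluripotency markers were lower at 72 h than at 34 h and 1, SOX2, was higher. LIN28A, in that list too, had means of 902 and 1024 TPM at these times. Of the neural progenitor markers 6 were tested, and SOX1, SOX2, PAX6, NES and FABP7 were higher at 72 h. SOX1 was at 1.63 and 2.14 TPM (34 h) and 56.5 and 45.2 TPM (72 h). SOX3, with means of 21.2 and 19.9 TPM, was not called, and HES5 was at 0 in both 72 h libraries. SOX2, with means of 217 and 340 TPM, is in both lists. The 6 mesoderm markers summed to 1.76 to 1.81 TPM (34 h), 11.2 to 15.4 (42 h), 9.86 to 12.4 (50 h) and 3.07 to 3.39 TPM (72 h). Of these, 3 were tested with limma: TBXT was higher at 42 h (2.40 ± 0.24, adjusted p = 0.00149) and at 50 h (2.20 ± 0.24, adjusted p = 0.00147), MIXL1 at 50 h (1.25 ± 0.25, adjusted p = 0.0232), and none at 72 h. The 4 endoderm markers summed to 12.2 to 13.6 TPM (34 h) and 0.598 to 0.866 TPM (72 h), nearly all of it FOXA2, which fell by 2.99 ± 0.18 in limma (adjusted p = 1.91e-05), while SOX17 was listed at 0 in all libraries. The 9 neural crest markers summed to 24.8 to 28.0 TPM (34 h), 34.4 to 37.6 (42 h), 35.1 to 35.5 (50 h) and 30.4 to 32.9 TPM (72 h). Of these, 6 were tested with limma: SOX9 was higher and FOXD3 lower at 42 h, SNAI2 and SOX9 were higher and FOXD3 lower at 50 h, and PAX3 and SNAI2 were higher and FOXD3 lower at 72 h. SOX9 had a limma change of 0.91 ± 0.12 at 42 h (adjusted p = 0.00494) and 0.16 ± 0.12 at 72 h (adjusted p = 0.347), and FOXD3 of -1.65 ± 0.24 (adjusted p = 0.00894) and -2.48 ± 0.24 (adjusted p = 0.000239). The 6 neuron markers, dominated by TUBB3, summed to 226 to 275 TPM (34 h), 255 to 333 (42 h), 256 to 324 (50 h) and 190.1 to 222 TPM (72 h). In that list STMN2 had means of 0.288, 1.52, 5.24 and 7.56 TPM and was called higher at all 3 later times (limma adjusted p = 0.0436 at 42 h, or 0.0604 with the replicate block, and 4.94e-05 at 72 h). DCX was called higher at 50 h (limma adjusted p = 0.0395, or 0.0561 with that block) and 72 h (0.0273). The 4 endothelial markers summed to 23.3 to 38.7 TPM, and the 2 tested went opposite ways by 72 h, TEK from a mean of 16.6 to 32.5 TPM (limma adjusted p = 0.00228) and KDR from 10.0 to 4.88 TPM (adjusted p = 0.00536). The 4 surface ectoderm markers never summed to more than 3.58 TPM. Over all tested genes, 2.58% were called at 42 h, 6.26% at 50 h and 24.0% at 72 h, each against 34 h. PAX3, PAX6, SNAI2, STMN2 and MIXL1 were under 1 TPM in both 34 h libraries and were tested through later ones. The minimum set for testing therefore favours a higher call for them. FOXA2 was under 1 TPM in both 72 h libraries, and FOXD3 reached 1 TPM at 34 h alone, so that minimum favours a lower call for both. The part of these marker changes in the cadherin results was not tested. The libraries are bulk, so fewer cells of a type and less RNA per cell cannot be told apart in any value below.

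CDH1 was high until 42 h and far lower by 72 h. The gene lies at chr16:68737225-68835548 on the plus strand of GRCh38 (GENCODE 29). It was at 150.0 and 137 (34 h), 132 and 151 (42 h), 95.1 and 105 (50 h) and 11.7 and 12.5 TPM (72 h). The 34 h and 42 h libraries overlapped, both 50 h libraries lay below them, and both 72 h libraries lay far below all others. The mean fell from 143 ± 9.50 TPM (SD, n = 2) at 34 h to 12.1 ± 0.601 TPM at 72 h, 11.8-fold lower on the TPM scale. In a limma fit of log2(TPM + 1) over all 8 libraries, with Benjamini-Hochberg adjustment over 14908 genes, the change from 34 to 72 h was -3.46 ± 0.11 (SE) with an adjusted p of 1.88e-06. Most of that fall came after 50 h, with a limma change of -2.94 ± 0.11 from 50 to 72 h (adjusted p = 2.83e-05). By 50 h CDH1 had fallen by 0.52 ± 0.11 from 34 h (limma adjusted p = 0.0306), and at 42 h the change was -0.02 ± 0.11 (adjusted p = 0.972). The call at 50 h was lost in 9 of 18 alternative analyses, where the adjusted p ranged from 0.0212 to 0.166, among them the omission of either 34 h, either 50 h or either 72 h library. Among the 14908 tested genes, CDH1 stood at rank 984 by mean TPM at 34 h and at rank 8334 at 72 h.

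CDH3, the gene next to CDH1 on the same strand, followed a similar course. It lies at chr16:68636189-68722616, and 14608 bases separate its end from the start of CDH1. P-cadherin is an epithelial cadherin that is often found together with E-cadherin. CDH3 was at 120.1 and 94.3 (34 h), 109 and 99.7 (42 h), 64.6 and 48.5 (50 h) and 7.20 and 12.6 TPM (72 h). The libraries of 34 and 42 h again overlapped, with 50 h below them and 72 h lowest. The change from 34 to 72 h was -3.35 ± 0.24 in limma (adjusted p = 5.34e-05), 10.9-fold lower on the TPM scale, and that from 50 to 72 h was -2.43 ± 0.24 (adjusted p = 0.00104). At 50 h the limma change from 34 h was -0.92 ± 0.24 and did not pass (adjusted p = 0.0672), although it passed in 4 of 18 alternatives, including the omission of either 72 h library (0.0335 and 0.0337). The ratio of CDH1 to CDH3 TPM was 1.35 ± 0.140 (34 h), 1.36 ± 0.209 (42 h), 1.82 ± 0.484 (50 h) and 1.31 ± 0.441 (72 h). The 72 h libraries overlapped with those of every other time.

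**Figure D1:**
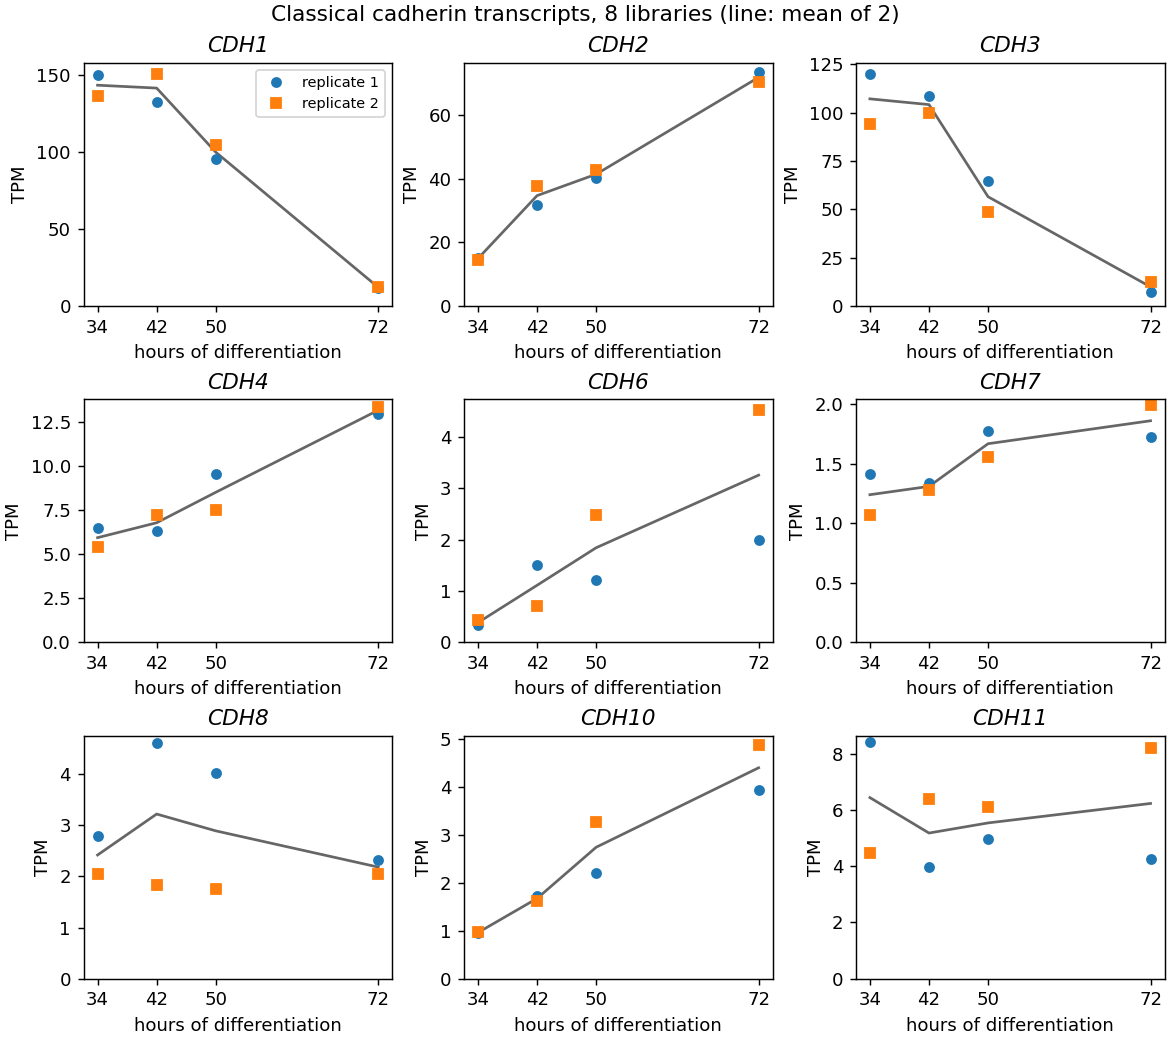
TPM of each of the 9 classical cadherins against hours of differentiation, 1 panel per gene with its own vertical axis from 0; points are the 2 libraries of a time point and the line joins their means. CDH1 and CDH3 drop to between 7.20 and 12.6 TPM at 72 h, CDH2 climbs from about 15 to above 70 TPM, and the libraries of CDH8 and CDH11 overlap between times.

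CDH2 had already risen at 42 h, when CDH1 gave no call. It lies at chr18:27950966-28177446 on the minus strand. The values were 15.2 and 14.6 (34 h), 31.6 and 37.6 (42 h), 40.1 and 42.6 (50 h) and 73.3 and 70.2 TPM (72 h). No time point overlapped with another, and the replicates of each lay close together. CDH2 was 2.33-fold higher at 42 h than at 34 h, a limma change of 1.16 ± 0.12 (adjusted p = 0.00157). It was 1.42 ± 0.12 higher at 50 h (limma adjusted p = 0.000368) and 2.20 ± 0.12 higher at 72 h (adjusted p = 1.26e-05), the last being a 4.82-fold difference in TPM. The step from 42 to 50 h, 0.25 ± 0.12, did not pass (limma adjusted p = 0.574). That from 50 to 72 h, 0.78 ± 0.12, did (adjusted p = 0.00709), but not without replicate 1 of 72 h (adjusted p = 0.0730). Its rank by mean TPM moved from 7362 at 34 h to 2124 at 72 h.

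To show the sequence before a start of CDH2, and to set beside it that of CDH10, a type II member that rose with it, the 250 bases upstream of a RefSeq start of each are given here in the direction of transcription. RefSeq promoter entries (GRCh38.p14) were found for 5 of the 9 genes, with 9 entries in all, and CDH1, CDH3, CDH6 and CDH11 had none. Capitals mark each CG dinucleotide, the site of DNA methylation in human cells. The CDH2 window is chr18:28177131-28177380 and the CDH10 window chr5:24644979-24645228, both on the minus strand. The CDH2 window lies inside the GENCODE 29 span of the gene given above, which begins further upstream than this RefSeq start.
CDH2: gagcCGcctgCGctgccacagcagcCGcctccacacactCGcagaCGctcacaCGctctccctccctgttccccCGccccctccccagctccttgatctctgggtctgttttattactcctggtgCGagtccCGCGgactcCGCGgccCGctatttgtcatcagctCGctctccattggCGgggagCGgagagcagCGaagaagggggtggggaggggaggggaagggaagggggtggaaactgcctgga
CDH10: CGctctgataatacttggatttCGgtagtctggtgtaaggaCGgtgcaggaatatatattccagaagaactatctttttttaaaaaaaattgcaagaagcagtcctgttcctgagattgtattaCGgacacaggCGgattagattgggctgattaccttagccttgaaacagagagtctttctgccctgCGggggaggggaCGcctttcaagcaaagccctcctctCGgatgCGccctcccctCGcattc
The CDH2 window had a GC content of 66.0% and 17 CG dinucleotides, and the CDH10 window had 47.6% and 10, against medians of 58% and 11 over 35116 such windows. CDH2 has a second, downstream entry, at chr18:28036642-28036891, with a GC content of 42.0% and 4 CG dinucleotides. On either strand, neither of the printed windows held the TCF/LEF motif CTTTGAT (2.26% of all windows), the E-box CACCTG bound by SNAI and ZEB factors (17.5%) or the SOX core ACAAAG (13.7%). The E-box occurred once in a CDH4 window, chr20:61499171-61499420, and the SOX core once in a CDH7 window, chr18:65750002-65750251. These matches describe letters in a window, and no binding or methylation was measured here.

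The balance of CDH2 to CDH1 was taken as a ratio within each library. CDH1 was above CDH2 in the 6 libraries of 34, 42 and 50 h and below it in the 2 of 72 h. On the scale log2((CDH2 TPM + 1)/(CDH1 TPM + 1)) it was -3.22 and -3.15 (34 h), -2.03 and -1.97 (42 h), -1.23 and -1.28 (50 h) and 2.55 and 2.40 (72 h). The 4 time points did not overlap and followed each other in order. An exact permutation test of the F statistic over all 2520 assignments of libraries to time points gave p = 0.00952, the smallest this design allows (one-sided for a large F, n = 2 per time point). In TPM, CDH1 was 9.63 ± 0.340 times CDH2 at 34 h, 4.09 ± 0.122 times at 42 h and 2.41 ± 0.0564 times at 50 h. At 72 h CDH2 was 5.94 ± 0.475 times CDH1. The crossing therefore lay between the 50 h and the 72 h libraries.

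The 2 genes did not move in step. Of its log2 change from 34 to 72 h, CDH2 had reached 52.9% at 42 h (46.0% and 59.8% in the 2 replicates) and 64.4% at 50 h. CDH1 had reached 0.589% at 42 h (5.08% and -4.21%) and 14.9% at 50 h, and CDH3 0.937% and 27.3%. At 42 h the ratio had thus moved through CDH2 while the CDH1 change was -0.02 ± 0.11.

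The summed TPM of the 9 cadherins went from 283 ± 32.4 at 34 h and 299.6 ± 10.7 at 42 h to 221 ± 3.52 at 50 h and 125 ± 7.76 at 72 h (SD, n = 2 each). CDH1 made up 50.8 ± 2.47% of this sum at 34 h and 9.70 ± 0.121% at 72 h. CDH3 went from 37.8 ± 2.10% to 7.84 ± 2.55%. CDH2 went from 5.29 ± 0.443% through 11.5 ± 1.00% at 42 h and 18.7 ± 1.13% at 50 h to 57.7 ± 5.33% at 72 h. In TPM, the loss of CDH1 and CDH3 was larger than the gain of CDH2, so that the total was lower at 72 h than in any earlier library.

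**Figure D2:**
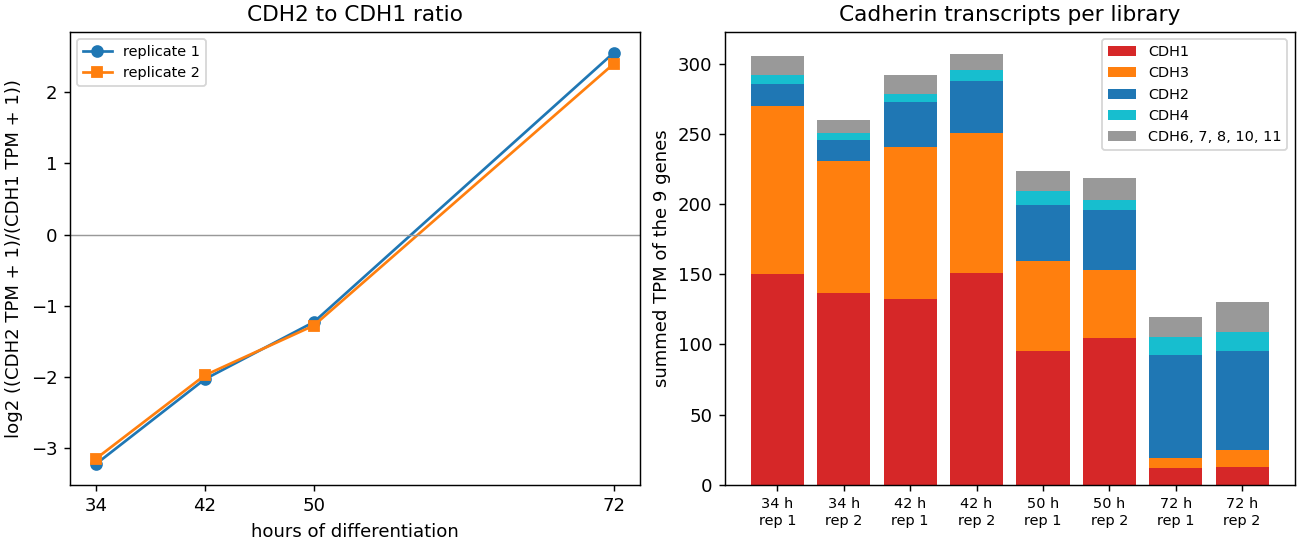
Left, log2 of the CDH2 to CDH1 ratio, with 1 TPM added to each gene, against hours of differentiation, 1 line per replicate number; the grey line marks equal levels. Right, summed TPM of the 9 cadherins in each library, stacked by gene from 0. The ratio goes from about -3 at 34 h to above 2 at 72 h, and the stack shrinks from between 260 and 307 TPM at 34 and 42 h to at most 130.3 TPM at 72 h.

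CDH4, the remaining type I member and a cadherin of the developing brain and retina, rose more slowly. Its value sums 2 Ensembl rows of the same symbol, ENSG00000179242 at chr20:61252426-61940617 and ENSG00000280641, which has no position in the annotation used. CDH4 was at 6.47 and 5.39 (34 h), 6.33 and 7.22 (42 h), 9.52 and 7.48 (50 h) and 12.9 and 13.4 TPM (72 h). Both 72 h libraries were above all others, while those of 34 and 42 h overlapped. The limma change was 1.03 ± 0.17 from 34 to 72 h (adjusted p = 0.00377) and 0.58 ± 0.17 from 50 to 72 h (adjusted p = 0.0839). At 72 h CDH4 and CDH1 stood at similar levels, with means of 13.1 and 12.1 TPM.

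Among the type II members, CDH10 and CDH6 rose and the other 3 did not pass. CDH10, a cadherin of the brain, lies at chr5:24487100-24644978 on the minus strand and was at 0.959 and 0.966 (34 h), 1.73 and 1.62 (42 h), 2.21 and 3.27 (50 h) and 3.93 and 4.87 TPM (72 h). Each time point lay above the one before it, without overlap. The limma change from 34 to 72 h was 1.45 ± 0.23 (adjusted p = 0.00289), and that at 50 h, 0.92 ± 0.23, did not pass (adjusted p = 0.0541), although it passed in 3 of 17 alternatives (0.0404 with a pseudocount of 0.1, 0.0498 after quantile normalization and 0.0281 without the variance trend). CDH6, a cadherin of the kidney and of early neural crest, lies at chr5:31193750-31329146 and was at 0.336 and 0.433 (34 h), 1.51 and 0.712 (42 h), 1.21 and 2.47 (50 h) and 1.99 and 4.52 TPM (72 h). Both 34 h libraries were below all later ones, while 42 h overlapped with 50 h and 50 h with 72 h. Its limma change from 34 to 72 h was 1.55 ± 0.37 (adjusted p = 0.0193), a call lost without replicate 1 of 34 h (0.0836), replicate 2 of 34 h (0.0757) or replicate 2 of 72 h (0.121). CDH6 shares 1109 exon bases with the pseudogene DUX4L51 on the same strand, so its level is uncertain to that extent.

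CDH7, CDH8 and CDH11 gave no call at any time. CDH7 (chr18:65750252-65890341), known from migrating neural crest and spinal cord, ranged from 1.06 to 1.99 TPM, with a limma change from 34 to 72 h of 0.36 ± 0.22 (adjusted p = 0.282). CDH8 (chr16:61647242-62037035, minus strand), a cadherin of forebrain neurons, ranged from 1.75 to 4.60 TPM and was higher in replicate 1 than in replicate 2 at every time. CDH11 (chr16:64943753-65126112, minus strand), a cadherin of mesenchyme, ranged from 3.96 to 8.41 TPM. For CDH8 and CDH11 the limma changes from 34 to 72 h were -0.10 ± 0.38 (adjusted p = 0.884) and -0.05 ± 0.35 (adjusted p = 0.944), so the standard errors were larger than the changes. The 5 type II members summed to 11.4 ± 3.49 TPM (34 h) and 17.9 ± 5.25 TPM (72 h).

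By mean TPM, the order at 34 h was CDH1, CDH3, CDH2, CDH11, CDH4, CDH8, CDH7, CDH10 and CDH6, and among neighbours in that order the libraries overlapped for CDH11 and CDH4 alone. At 72 h the order was CDH2, CDH4, CDH1, CDH3, CDH11, CDH10, CDH6, CDH8 and CDH7. There, CDH2 stood clear of the rest and CDH4 of CDH1, while each neighbouring pair from CDH1 down to CDH8 overlapped.

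Counted over the 9 members with limma at an adjusted p under 0.05, 1 was higher and 0 were lower at 42 h than at 34 h. Over all tested genes 2.58% were called there, 1.78% higher and 0.792% lower. At 50 h, 1 was higher and 1 lower, against 6.26% of all tested genes, 3.52% higher and 2.74% lower. At 72 h, 4 were higher and 2 lower, against 24.0%, 12.7% higher and 11.3% lower. From 50 to 72 h, 1 was higher and 2 were lower, against 7.33%, 2.92% higher and 4.41% lower. From 42 to 50 h none passed in limma, with 2 members at an unadjusted p under 0.05, against 0.0939% of all genes, 0.0604% higher and 0.0335% lower. Tested for any change from 34 h by limma's F statistic, 5 members passed, against 17.4% of all genes; they were the 6 called at 72 h other than CDH6. CDH6 and CDH10 were under 1 TPM in both 34 h libraries and were tested through later ones, so the filter favours a higher call for them. The median change of the 9 from 34 to 72 h was 0.36, beside 0.06 over all tested genes. The comparisons with 34 h share the 34 h libraries.

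**Figure D3:**
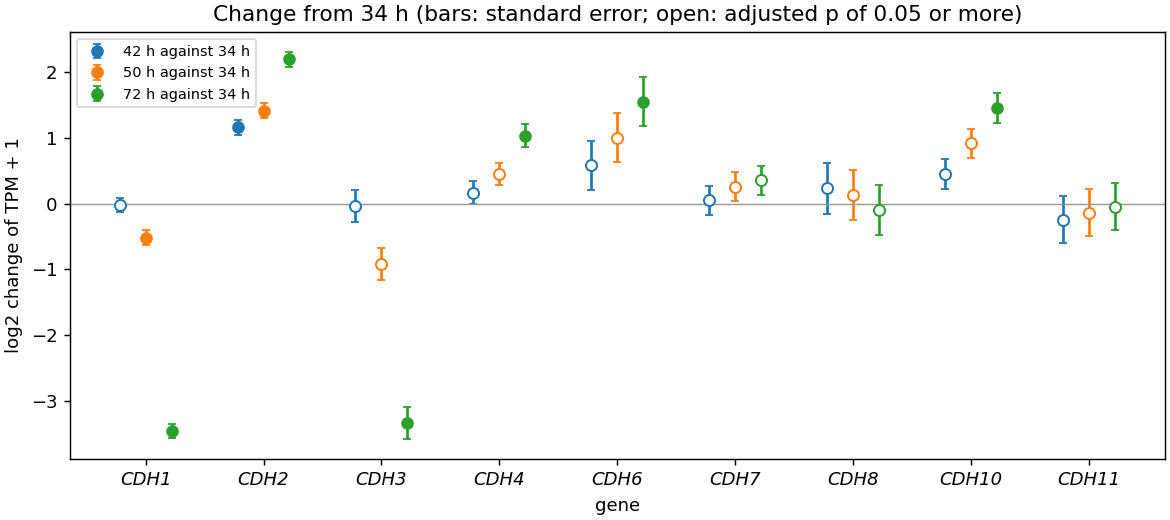
Change of log2(TPM + 1) from 34 h for each of the 9 cadherins at 42, 50 and 72 h, with standard errors from limma; filled points have an adjusted p under 0.05 and open points do not. CDH2 is the one gene filled at all 3 times, and at 72 h CDH1 and CDH3 lie below -3 while CDH2, CDH4, CDH6 and CDH10 lie above 1.

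Of the 13 type II cadherins, the 5 members included, 8 passed the filter. Of the tested ones that are not members, CDH9 was not called at 72 h (limma change from 34 h 0.28 ± 0.45, adjusted p = 0.698). CDH12 and CDH24 were called higher at 72 h than at 34 h, beside 12.7% of all tested genes. CDH12 reached 1 TPM at 50 and 72 h alone, so it was tested only through the libraries where it was high. CDH24 went from 18.7 ± 1.92 to 34.9 ± 2.28 TPM (limma change 0.87 ± 0.13, adjusted p = 0.00261). CDH12 went from 0.0192 ± 0.0272 to 1.85 ± 0.701 TPM (limma adjusted p = 0.00872, and 0.0646 without replicate 1 of 72 h). The vascular cadherin CDH5 did not exceed 0.435 TPM in any library. Of 12 other cadherins and relatives, 8 were tested and 2 rose at 72 h, against the same 12.7%. CDH23, a long cadherin of hair cell tip links, was at 5.81 and 5.91 (34 h), 9.07 and 7.31 (42 h), 16.2 and 13.6 (50 h) and 52.9 and 47.8 (72 h). Its limma change from 34 to 72 h was 2.90 ± 0.15 (adjusted p = 1.20e-05), and no time point overlapped with another.

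The partners on the cytoplasmic side were mixed. Of 15 catenins and actin linkers, all tested, none was called at 42 h (2.58% of all genes), and 4 were higher and 2 lower at 72 h than at 34 h (12.7% and 11.3% of all genes). Their median change at 72 h was -0.05, beside 0.06 over all tested genes. CTNNB1, beta-catenin, had a limma change of -0.05 ± 0.15 (adjusted p = 0.857), CTNNA1, alpha-catenin, -0.17 ± 0.09 (adjusted p = 0.202) and CTNND1, which binds the juxtamembrane tail, 0.12 ± 0.09 (adjusted p = 0.346). CTNNA2, the neural alpha-catenin, was at 2.39 and 2.30 TPM (34 h) and 6.51 and 6.40 TPM (72 h) (limma change 1.15 ± 0.18, adjusted p = 0.00275). VCL, the actin linker vinculin, was at 291 and 267 TPM (34 h) and 115 and 118 TPM (72 h) (limma change -1.25 ± 0.08, adjusted p = 3.24e-05). In both genes the 34 h and 72 h libraries lay well apart. The others called at 72 h were CTNND2, ARVCF and AFDN, which were higher, and LIMA1, which was lower. AFDN and CTNND2 lost their calls in 13 and 10 of 18 alternatives, ARVCF in 2 and LIMA1 in 1, and with the replicate number as a block AFDN had a limma adjusted p of 0.0501. JUP, or plakoglobin, had a change of -0.49 ± 0.17 that did not pass (limma adjusted p = 0.0664) and passed with that block (0.0370).

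Desmosomes are junctions built from the desmosomal cadherins. Of 11 desmosomal genes 5 were tested, and DSG2, DSC2, PKP2 and PKP3 were lower at 72 h than at 34 h, against 11.3% of all tested genes, with the call of DSC2 lost in 2 of 18 alternatives. PKP3 was under 1 TPM in both 72 h libraries and was tested through earlier ones, so the filter favours a lower call for it. The desmosomal cadherin DSG2 had a limma change of -0.92 ± 0.10 (adjusted p = 0.000518). The plaque protein gene DSP took another course: it was at 38.1 and 32.5 (34 h), 103 and 104 (42 h), 88.9 and 77.9 (50 h) and 37.4 and 40.7 (72 h). It rose by 42 h (limma change 1.53 ± 0.12, adjusted p = 0.000489) and had fallen again by 72 h (-1.08 ± 0.12 from 50 h, adjusted p = 0.00160), when its libraries overlapped with those of 34 h.

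Known transcriptional repressors of CDH1 were mixed. Of 10, all tested, 2 were higher at 42 h than at 34 h (1.78% of all genes). At 50 h 3 were higher and 1 lower (3.52% and 2.74%), and at 72 h 4 were higher and 2 lower (12.7% and 11.3%). The gene lower at 50 h was SNAI3, a call lost in 10 of 17 alternatives, and among the higher ones SNAI2 lost its call in 4 of 17, without either 34 h or either 50 h library. The median change at 72 h was 0.45, beside 0.06 over all tested genes. SNAI2 and ZEB1 were under 1 TPM in both 34 h libraries and were tested through later ones, so the filter favours a higher call for them. ZEB2, a zinc finger repressor of E-cadherin also used in neural development, was at 4.92 and 3.74 (34 h), 32.9 and 28.8 (42 h), 41.8 and 31.1 (50 h) and 80.4 and 59.6 (72 h). Its limma change was 2.58 ± 0.20 at 42 h (adjusted p = 0.000489) and 3.73 ± 0.20 at 72 h (adjusted p = 1.31e-05). ZEB2 was thus higher at 42 h, where CDH2 was higher too and CDH1 gave no call. SNAI2, also a neural crest marker, went from 0.339 and 0.360 TPM (34 h) to 6.99 and 5.19 TPM (72 h) (limma change 2.38 ± 0.24, adjusted p = 0.000315). ZEB1 reached 3.20 and 3.75 TPM at 72 h from 0.606 and 0.254 TPM (limma change 1.65 ± 0.28, adjusted p = 0.00397). TCF4 was higher at all 3 times, but its call at 42 h was lost in 5 of 18 alternatives, with an adjusted p of up to 0.0974 in limma. These were the omission of either 34 h or either 42 h library and the fit of both times alone, which leave ZEB2 as the repressor called higher at 42 h. SNAI1 and SNAI3 were lower at 72 h, with limma changes of -0.75 ± 0.18 (adjusted p = 0.0188) and -1.02 ± 0.30 (adjusted p = 0.0412), and these calls were lost in 3 of 18 and 6 of 17 alternatives.

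Of 9 factors that maintain the epithelial state, all tested, 7 were lower at 72 h than at 34 h and none was higher, against 11.3% of all genes lower. None was called at 42 h, and 4 (GRHL2, OVOL1, ESRP1 and EPCAM) were lower at 50 h, against 2.74%. The median change at 72 h was -1.72, beside 0.06 over all tested genes. GRHL2, OVOL1 and OVOL2 were under 1 TPM in both 72 h libraries, and OVOL1 in both 50 h libraries too. They were tested through earlier libraries, so the filter favours a lower call for them. The call of OVOL1 at 50 h was lost in 12 of 17 alternatives, that of EPCAM in 6 of 18, that of GRHL2 in 3 of 17 and that of ESRP1 in 0 of 18. EPCAM, an epithelial adhesion molecule, was at 320.0 and 349 (34 h), 325 and 317 (42 h), 185 and 219.7 (50 h) and 23.7 and 31.0 (72 h) (limma change from 34 to 72 h -3.57 ± 0.14, adjusted p = 3.88e-06). ESRP1, a regulator of epithelial splicing, was at 93.5 and 95.2 TPM (34 h) and 6.83 and 7.64 TPM (72 h) (-3.53 ± 0.10, limma adjusted p = 1.35e-06). GRHL2, a transcription factor known to activate CDH1, was at 9.04 and 8.64 TPM (34 h) and 0.564 and 0.320 TPM (72 h) (-2.78 ± 0.19, limma adjusted p = 4.16e-05). In each of these 3 genes the 72 h libraries lay far below all 34 h libraries. GRHL1 and GRHL3 gave no call, with limma changes at 72 h of -0.07 ± 0.36 (adjusted p = 0.906) and 0.10 ± 0.28 (adjusted p = 0.831).

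**Figure D4:**
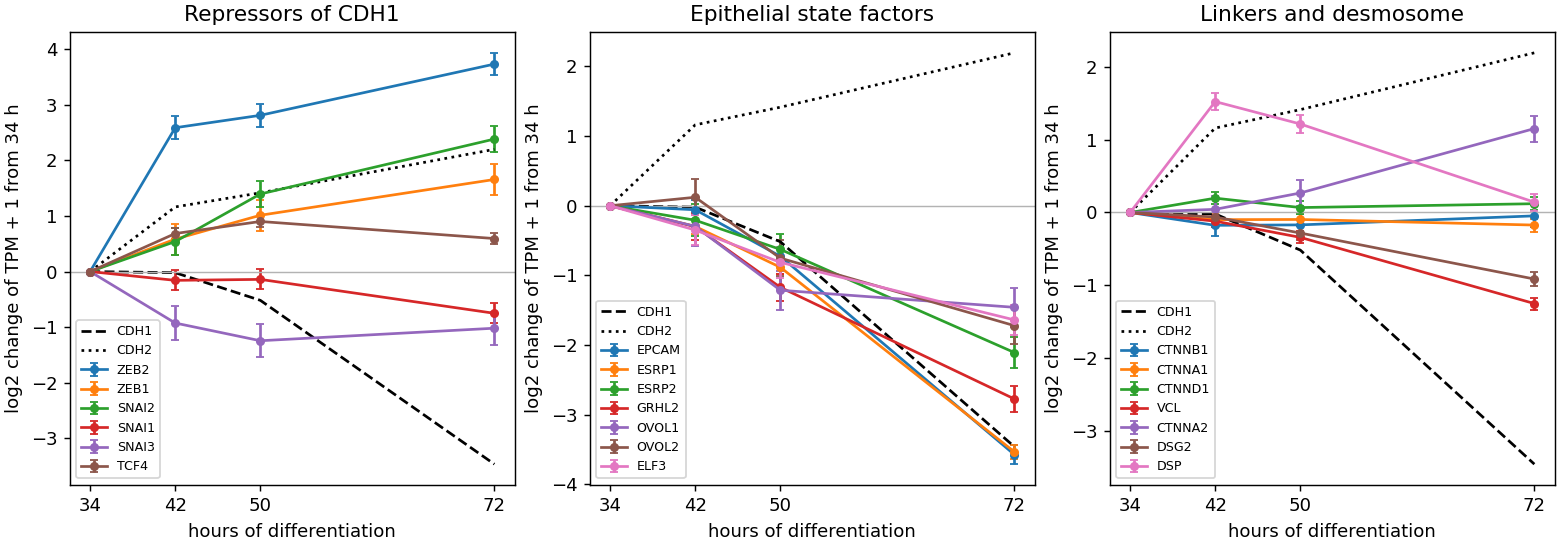
Change of log2(TPM + 1) from 34 h against hours of differentiation for part of the repressors of CDH1, epithelial state factors, and linkers with desmosomal genes. The repressor and epithelial panels hold only the genes called at 72 h against 34 h, and the last panel holds a selection of its lists. Points are limma estimates with standard errors, and the dashed and dotted lines repeat CDH1 and CDH2 in each panel. ZEB2 is up by 2.58 at 42 h, where CDH1 is at -0.02; EPCAM and ESRP1 run close to CDH1; CTNNB1, CTNNA1 and CTNND1 stay near 0.

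Finally, genes with a course like that of CDH1 or CDH2 were listed by the Pearson correlation of log2(TPM + 1) over the 8 libraries, among 2569 tested genes that averaged at least 10 TPM and had a range of time point means of at least 0.5. These are descriptions, since the libraries share 4 time points. The 5 genes most like CDH1 were DCLK1 (r = 0.997), SCNN1A (0.997), EPCAM (0.996), CGNL1 (0.995) and THBS2 (0.995). SCNN1A, an epithelial sodium channel subunit, had a mean of 149.7 TPM (34 h) and 21.5 TPM (72 h), and CGNL1, a junction protein, 34.8 and 8.12 TPM. The 5 most like CDH2 were NCOA3 (r = 0.994), ID2 (0.992), ADAMTS19 (0.987), SALL1 (0.986) and DCAF16 (0.985). ID2, an inhibitor of basic helix-loop-helix factors, had means of 26.8, 60.8, 72.9 and 125 TPM at the 4 time points.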

How the data were processed

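Expression was measured in 8 libraries, 2 for each of the 4 time points. Per the submitters' processing notes the tools and build include Salmon 1.9.0 and GRCh38; the annotation and any filter are not given in the sources used here. The authors deposited TPM per Ensembl gene, each column summing to 1000000, which keeps no record of read numbers, so library depth is unknown and no counting interval was computed; p-values measure the spread between the libraries alone. All columns of values were used. The 37951 rows were summed by symbol to 35940. Symbols with at least 1 TPM in at least 2 libraries, 14908 of them, were taken as log2(TPM + 1), a scale that understates changes of low genes, and fitted with 1 mean per time point in limma 3.58.1 (R 4.3.3; lmFit and eBayes with a variance trend), with 4 residual degrees of freedom. Adjusted p-values are two-sided Benjamini-Hochberg values over all tested symbols, called under 0.05. The fit was tested on simulated data. Some exons overlap other genes: CDH1 shares 347, CDH2 136, CDH3 694, CDH6 125 and CDH8 79 exon bases with an antisense gene, and on the same strand CDH6 shares 1109 with the pseudogene DUX4L51 and CDH11 254 with AC010533.1, which strand cannot separate. Whether the quantification used strand is not given in the sources used here.

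The labels give the replicate number as a batch, and pairing across times was taken from that label; whether 1 culture was followed through all times is not given in the sources used here. The replicate 1 to replicate 2 difference per gene had a correlation of 0.0949 (34 with 42 h), 0.195 (34 with 50 h), 0.142 (42 with 50 h), -0.0445 (34 with 72 h), -0.0779 (42 with 72 h) and -0.104 (50 with 72 h), so the 72 h libraries did not deviate together with those of the same number. Values blocked on this number are printed where they change a call.

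The members and all gene lists were chosen with earlier results of these data known. Genes that could be named were the members, type I and II cadherins, list genes called in any contrast, and the 5 genes most like CDH1 and CDH2; not all are. TUBB3, CTNNB1, CTNNA1, CTNND1, JUP, GRHL1, GRHL3, SOX17, SOX3, HES5 and the neighbours of CDH1 fall outside this rule and were chosen after their values were seen. Positions are from GENCODE 29 on GRCh38, through the Ensembl identifier. Alternatives were a pseudocount of 0.1, no filter or a mean of at least 5 TPM, median-ratio scaling, quantile normalization, mitochondrial genes left out, no variance trend, a replicate block, pairs of time points fitted alone, Ensembl rows apart (a list gene with several rows was then read from the row with its lowest p, which favours a kept call), and each library left out in turn.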

Additional observations from a re-analysis of the deposited data

How the results depend on the processing

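The count of changed cadherins at 50 h against 34 h was 2 and differed in 9 of 18 alternatives: 1 without the filter or with the compared time points fitted alone, 3 with a pseudocount of 0.1 (CDH10 added) or a mean of at least 5 TPM (CDH3 added), 4 after quantile normalization, and 1 without either 34 h or either 50 h library (1 to 2 over left-out libraries). It was 2 without either 72 h library, with CDH3 in place of CDH1, and without the variance trend, with CDH10 in place of CDH1. At any time it was 5, and 3 to 5 with 1 library left out, the lowest without replicate 2 of 34 h or either 72 h library. At 72 h it was 6, 5 to 6 with 1 library left out, and 4 at a mean of at least 5 TPM, which leaves CDH6 and CDH10 untested; from 50 to 72 h it was 3, and 2 to 3; at 42 h it was 1 in all 18. The p of the CDH2 to CDH1 ratio, 0.00952, or 0.0417 with the replicate block (576 assignments), is the smallest each design can give, with any library left out too, and so says nothing of stability. With the block the member counts were 1, 2, 6, 0 and 3 in the comparisons of 34 h with 42, 50 and 72 h, of 42 with 50 h, and of 50 with 72 h, and 5 at any time, with no member call changed; among list genes other than cell type markers, AFDN and JUP are given in the report, and VCL and OVOL1 at 50 h (adjusted p 0.0608 and 0.0538), NCSTN at 72 h (0.0596) and SNAI2 from 50 to 72 h (0.0564) lost theirs. Members were followed in every comparison and list genes only where called, so that gains among list genes are not counted. Of 1818 such values under an alternative, 1605 kept their side and direction, 185 lost a call, 7 gained one, and 21 uncalled changes had the other sign.

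Counts over all genes depended more on single libraries. At 42 h 384 genes were called, 171 with the time points alone and 161 to 372 with 1 library left out, and 256 without the filter. The respective values at 50 h were 933, 431, 398 to 793 and 686; at 72 h 3578, 3252, 1867 to 3629 and 3019; from 50 to 72 h 1093, 367, 316 to 911 and 790; from 42 to 50 h 14, 0, 1 to 8 and 8, or 27 without the variance trend, 24 at a mean of 5 TPM, 4 with Ensembl rows apart and 7 with the block; at any time 2587, with 1118 to 2478 over left-out libraries. After median-ratio scaling, the calls higher and lower turned from 525 and 408 to 457 and 502 at 50 h, from 1900 and 1678 to 1591 and 1963 at 72 h, and from 9 and 5 to 9 and 10 between 42 and 50 h. With 2 libraries per time point and no read numbers, CDH6, CDH8 and CDH11, all at a few TPM, had the widest errors of the members, and a missed call there does not show that levels were equal. Where 1 library is left out, the lone library of that time is assumed to vary like the others. The causes were not tested.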

Other observations

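Of 14 sheddase, gamma-secretase and turnover genes of cadherins, all tested, 2 were called at 72 h against 34 h, beside 24.0% of all tested genes. PSEN2, a catalytic subunit of gamma-secretase, had means of 9.43 ± 0.856, 18.1 ± 0.283, 18.6 ± 3.40 and 16.3 ± 2.23 TPM at the 4 successive times (SD, n = 2) and passed in limma at all 3 times (adjusted p = 0.0336, 0.0166 and 0.0161); the calls were lost in 9, 4 and 2 of 18 alternatives. NCSTN, another subunit, passed at 72 h (limma adjusted p = 0.0497), a call lost in 14 of 18. Of the nectins, adhesion molecules of the same junctions, 3 were tested, and NECTIN3 was lower at 50 h, beside 2.74% of all tested genes (limma change -0.75 ± 0.17, adjusted p = 0.0387, lost in 9 of 18). Its mean was 17.0 TPM at 50 h and 22.6 TPM at 72 h, when it was not called against 34 h (limma change -0.36 ± 0.17, adjusted p = 0.165). The calsyntenin CLSTN1 had 70.2 ± 3.64 TPM before WNT3A and 103 ± 1.38 TPM in the 72 h libraries (limma adjusted p = 0.00887, lost in 3 of 18).

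Genes near CDH3 and CDH1 were looked at within 500 kb, a window chosen after the values were seen. Of 18 other tested genes there, 2 were higher and 3 lower at 72 h than at 34 h in limma, beside 12.7% and 11.3% of all tested genes, a share near the background, and the median change was 0.00450. The lower ones were ESRP2 (-2.11 ± 0.23, adjusted p = 0.000467), HAS3 (-1.32 ± 0.13, 0.000301) and UTP4 (-0.41 ± 0.09, 0.0129), and the higher ones were SLC7A6 (0.70 ± 0.17, 0.0191) and ZFP90 (0.89 ± 0.20, 0.0138). ESRP2, the partner of ESRP1, belongs also to the epithelial factors above. No other tested gene lay within 500 kb of CDH2.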
